A study of Mus musculus with 16 samples.

Results

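The genes described here are 9 components of interleukin-6 (IL-6) family signaling in mouse gastrocnemius: the receptor genes Osmr, Il6ra, Il6st and Lifr, the kinase genes Jak1 and Jak2, the transcription factor gene Stat3, and the response genes Socs3 and Cebpd. They were chosen by symbol from the 35415 genes of the count and FPKM tables, after earlier results of these data were known, and all 9 were among the 14749 genes with enough counts to be tested. The comparison of tumor-bearing with control mice was among those earlier results, so for these 9 genes it is given as a description without a p-value.

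Cytokines of this family signal through receptor pairs that share the gp130 chain, which Il6st encodes. IL-6 first binds its own receptor IL-6Rα (Il6ra), oncostatin M binds OSMR or LIFR, and leukemia inhibitory factor binds LIFR, each together with gp130. The bound receptors activate the kinases JAK1 and JAK2, which phosphorylate STAT3, and STAT3 then enters the nucleus and switches on genes that include its own brake, Socs3. In skeletal muscle the pathway takes part in regeneration and is known for its part in the muscle wasting that accompanies cancer and inflammation. The phosphorylated protein is the active form of STAT3, and RNA levels do not measure it.

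RNA was sequenced from the gastrocnemius of 16 wild-type male BALB/c mice, 8 weeks old at purchase, with 4 mice in each of 4 groups. Controls (C) received saline under the skin of the left dorsolateral hind limb and did not train. Exercise controls (E) received the same saline and ran on a treadmill for 4 weeks, 6 days per week and 60 min per day at 14 m/min. The tumor group (T) carried CT26 cells, a BALB/c colon carcinoma line, injected at that site, and stood on an unmoving treadmill, as the C mice did. The tumor plus exercise group (TE) received CT26 cells and trained like E. Per the paper, tumors formed in all T mice and in all but 1 of the TE mice, and tumor growth tended lower in TE. The paper does not give the tumor load of the sequenced mice. Each group of the study held 12 mice, of which 4 were sequenced, all under 1 batch label, and the sources used here do not say from which leg the sequenced muscle came. A mouse is named here by its group and replicate number, such as T3, and equal numbers in different groups stand for different mice. In bulk tissue, fewer cells of a type and less RNA per cell cannot be told apart.

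Library totals lay between 35628211 and 37635741 counts, so depth was nearly even, and 3 counts in a library corresponded to 0.0759 to 0.0875 CPM (counts scaled to library size). Myofiber marker genes summed to 118695 to 144793 CPM in every library, which fits the labelled muscle. TE4 stood apart with 146 CPM over the lymphocyte and lymph node markers, against 4.87 to 53.8 CPM in the other libraries. T3 differed most from the other mice of its group, with chi-square values per degree of freedom of 45.4 to 61.3, the highest of any pair within a group (12.7 to 43.5 for pairs without T3), and it had the highest sums in T of fibro-adipogenic (2388 CPM against 1534 to 1983), endothelial (1225 against 848 to 954) and satellite cell markers (67.8 against 36.8 to 56.1). Of 8 epithelial carcinoma markers, Cdx2 had 0 counts in every library, which allows up to 3 counts each, and Epcam had 0 to 5. The 8 summed to 13.9 to 22.1 CPM in C, 15.7 to 27.5 in E, 14.002 to 28.5 in T and 19.6 to 22.1 in TE, most of it from Ceacam1 (10.3 to 22.3 CPM) and Cdh1 (1.71 to 6.83 CPM), and 0 of the 4 tested were called in any comparison.

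The 9 genes lie on 7 chromosomes of GRCm39. Osmr (chr15:6843053-6904450, minus strand) and Lifr (chr15:7120095-7226970, plus strand) are near each other on chromosome 15, and Stat3 (chr11:100775924-100830450, minus strand) and Socs3 (chr11:117856905-117860898, minus strand) share chromosome 11. Il6ra (chr3:89771366-89820719), Jak1 (chr4:101008838-101122487), Il6st (chr13:112600604-112646620), Cebpd (chr16:15705150-15708895) and Jak2 (chr19:29228677-29290505) lie alone. Exons of Stat3 overlap those of Stat5a on the opposite strand, exons of Cebpd those of Spidr and exons of Jak1 those of Raver2, and Il6ra, Il6st, Lifr, Jak2 and Socs3 overlap exons of opposite-strand long noncoding RNAs. The strand setting of the counting is not given in the sources used here, so reads of such pairs cannot be told apart. No exon of another gene overlaps those of Osmr.

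The promoter windows of 3 members are printed because the groups did not overlap for Osmr and Stat3 in either tumor comparison and Socs3 is the textbook STAT3 target. Each runs from 250 bases before to 50 bases after the transcription start in RefSeq on build GRCm38.p6, read 5′ to 3′ on the minus strand (Osmr chr15:6874264-6874563, Stat3 chr11:100939491-100939790, Socs3 chr11:117969317-117969616). Capitals mark the palindromic STAT motif TTCNNNGAA, which reads the same on both strands.
Osmr: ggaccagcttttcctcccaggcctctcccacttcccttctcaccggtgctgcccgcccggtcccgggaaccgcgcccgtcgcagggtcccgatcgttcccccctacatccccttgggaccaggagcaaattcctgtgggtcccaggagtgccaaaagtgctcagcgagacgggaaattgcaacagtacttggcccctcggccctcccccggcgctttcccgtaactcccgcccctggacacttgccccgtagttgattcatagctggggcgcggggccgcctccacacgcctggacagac
Stat3: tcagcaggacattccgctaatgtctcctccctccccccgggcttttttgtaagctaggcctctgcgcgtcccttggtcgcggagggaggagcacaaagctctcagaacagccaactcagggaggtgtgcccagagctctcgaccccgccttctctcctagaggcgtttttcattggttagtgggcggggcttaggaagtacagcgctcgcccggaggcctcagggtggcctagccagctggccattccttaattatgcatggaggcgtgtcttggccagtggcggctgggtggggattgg
Socs3: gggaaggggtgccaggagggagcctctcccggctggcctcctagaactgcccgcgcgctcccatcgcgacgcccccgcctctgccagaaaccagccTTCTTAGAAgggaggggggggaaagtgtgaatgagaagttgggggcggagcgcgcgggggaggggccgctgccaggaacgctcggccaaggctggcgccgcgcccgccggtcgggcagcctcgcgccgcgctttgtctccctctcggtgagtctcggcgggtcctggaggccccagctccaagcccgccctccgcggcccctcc
The motif occurred once, in the Socs3 window as TTCTTAGAA, from 154 to 146 bases before the start. Of the 9 members, 8 had promoter windows (Cebpd was missing), 9 windows in all because Lifr had more than 1. Of these 9 windows, 1 held the motif, against 2726 of 32851 windows (8.3%) of the same length over all genes. The match is a description of letters in the Socs3 window and not a measured binding site.

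Per unit of length, Jak1 and the shared receptor chain gene Il6st were the most abundant members, and Socs3 and Il6ra the least. In C, the mean FPKM (fragments per length and library total) was 33.3 ± 1.72 (SD, n = 4) for Jak1, 30.1 ± 1.63 for Il6st, 14.01 ± 1.01 for Stat3 and 7.68 ± 0.585 for Lifr. Cebpd, a C/EBP transcription factor gene that STAT3 induces, followed at 5.91 ± 0.373, Jak2 at 5.83 ± 0.501, Osmr at 2.88 ± 0.418, Socs3 at 1.75 ± 0.382 and Il6ra at 0.939 ± 0.289. Of the 8 neighbouring pairs in this order, only Cebpd and Jak2 overlapped in their FPKM values over the 4 C mice. In both tumor-bearing groups, the mean of Cebpd stood above that of Lifr, and the mean of Osmr above that of Jak2. Jak1 and Il6st held the first 2 places in every group, in changing order.

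**Figure D1:**
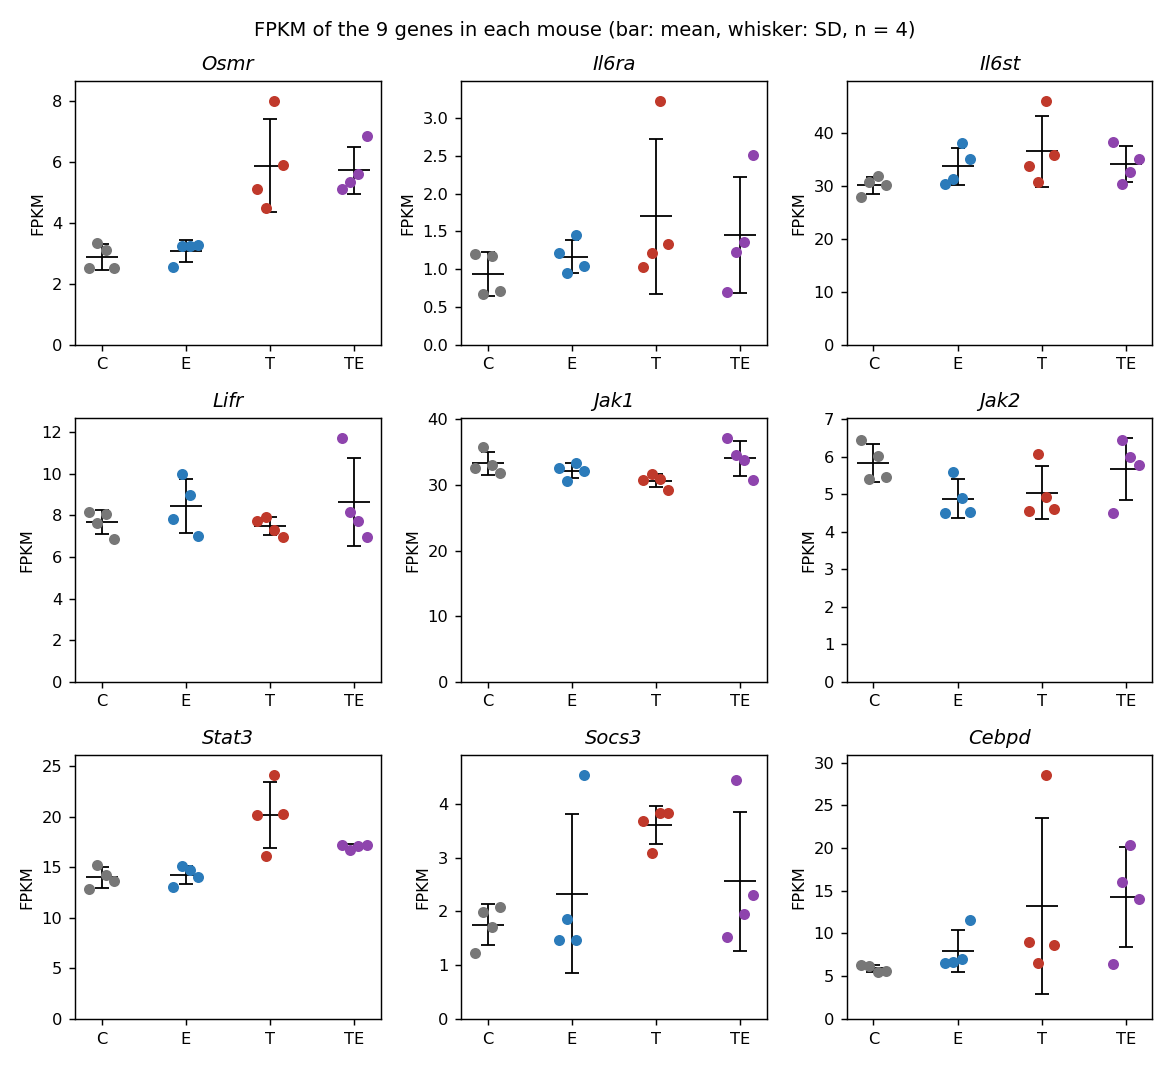
FPKM of the 9 genes (vertical axes, each from 0) in each of the 16 mice by group, where points are mice, the short horizontal bar is the group mean and the whiskers are the SD (n = 4). Osmr was 4.49 to 8.02 FPKM in T and 5.12 to 6.85 in TE, above every C and E mouse (at most 3.34), whereas the mean of Jak1 lay between 30.6 and 34.0 in all groups.

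The genes also differed in how much mice of 1 group varied. The SD of log2 CPM within groups, pooled over the 4 groups, was 0.08 for Jak1, 0.13 for Stat3, 0.15 for Il6st, 0.19 for Jak2, 0.21 for Lifr and 0.23 for Osmr. It was 0.54 for Socs3, 0.57 for Il6ra and 0.63 for Cebpd, so that differences between groups were measured least precisely for these 3 genes. In T, mouse T3, which stood apart from its group, held the highest CPM for 5 of the 9 genes.

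Osmr encodes the receptor chain that binds oncostatin M, and it was higher in tumor-bearing than in tumor-free mice, whether they trained or not. Osmr stood at 14.3, 17.9, 16.7 and 13.7 CPM in C1 to C4 and at 29.4, 24.8, 43.1 and 32.5 CPM in T1 to T4. It was 13.5, 17.4, 16.8 and 17.5 CPM in E1 to E4 and 27.6, 29.7, 31.4 and 36.6 CPM in TE1 to TE4. Every tumor-bearing mouse was above every tumor-free mouse, trained or not. Between untrained groups, the log2 fold change of T vs C was 1.05 ± 0.15 (SE), a 2.08-fold difference. Between trained groups, which share no mouse with T and C, Osmr rose 1.92-fold in TE vs E (log2 fold change 0.94 ± 0.15, adjusted p = 0.00698, edgeR quasi-likelihood test). It ranked 10th by p-value among the 14749 genes, of which 0.231% (34 genes) were called in TE vs E at an adjusted p-value under 0.05. Osmr was the only one of the 9 members called there. It stayed past the threshold with each of the 16 libraries left out in turn, with adjusted p-values of 0.00153 to 0.0327, and without TE4 the log2 fold change was 0.87 (adjusted p = 0.0258, edgeR). Its fold change stayed under the 2-fold limit of the study's own rule for differential expression.

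Markers of some other cell types moved with the Osmr groups. The summed level of 10 neutrophil markers was 1.92 to 4.59 CPM in E and 11.7 to 20.9 CPM in TE, with 8 of the 10 genes tested, all 8 above 0 in log2 fold change and 0 called in TE vs E. In C the sum was 1.26 to 4.23 CPM and in T 8.93 to 47.6 CPM, and 5 of the 8 were called higher. The defining neutrophil genes Camp and Ly6g had 0 to 10 and 0 to 5 counts per library. The sum of 6 erythroid markers was 238 to 348 CPM in E and 554 to 785 CPM in TE, with 5 of 6 called higher, and it was 223 to 326 CPM in C and 471 to 525 CPM in T, with 4 of 6 called higher. None of 10 macrophage markers was called in either comparison, with sums of 82.2 to 150.1 CPM in E and 96.9 to 186 CPM in TE and 8 of 10 above 0 in log2 fold change, and sums of 75.2 to 144 CPM in C and 102 to 222 CPM in T and 10 of 10 above 0 (median 0.67). Fibro-adipogenic progenitor markers summed to 2516 to 3245 CPM in E and 1940 to 2087 CPM in TE, with 0 of 10 called, and to 1678 to 2411 CPM in C and 1534 to 2388 CPM in T, with 1 of 10 (Ly6a) called higher. The 12 lymphocyte and lymph node markers were called in neither comparison, with 0 of 12 above 0 in T vs C (median log2 fold change −3.69) and 11 of 12 above 0 in TE vs E. The direction in TE vs E rested on TE4, since the sum was 146 CPM in TE4 but 8.04, 7.38 and 5.21 CPM in TE1 to TE3, below the 13.2 to 46.2 CPM of the E mice. Of 10 endothelial markers, Kdr, a VEGF receptor gene, was called lower in T vs C (log2 fold change −0.68, adjusted p = 0.0457, edgeR), and 0 were called in TE vs E, where Kdr was at −0.69 without overlap of the groups (adjusted p = 0.0757, edgeR). The part of these cell types in the Osmr result was not tested.

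Over all 16 libraries, the 5 genes whose log2 CPM followed Osmr most closely were Lrg1, a secreted acute phase glycoprotein gene (Pearson r = 0.963, Spearman rho = 0.885), S100a9, a neutrophil calprotectin subunit gene (r = 0.937, rho = 0.991), the membrane protease gene St14 (r = 0.931, rho = 0.868), the erythroid heme synthesis gene Alas2 (r = 0.928, rho = 0.865) and the G-CSF receptor gene Csf3r (r = 0.920, rho = 0.947). These points share the 4 groups and the libraries, so the correlations are descriptions (n = 16) and include the difference between tumor-bearing and tumor-free mice. Lrg1 had a log2 fold change of 1.26 ± 0.14 in T vs C and 1.03 ± 0.14 in TE vs E, given as a description because it was named for its likeness to Osmr. Of the 18 acute phase genes listed, 8 were tested. Lrg1, Lbp and Serpina3n were called higher in T vs C, where 0.678% of all tested genes were called. In TE vs E, where 0.231% of all tested genes were called, Lrg1 was the only acute phase gene called.

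Il6st, Lifr and Il6ra, the other receptor genes, showed smaller or less even differences. Il6st was 166, 173, 178 and 171 CPM in C, 203, 178, 260.5 and 208 CPM in T, 168, 177, 207 and 198 CPM in E, and 217, 177, 192 and 197 CPM in TE. T2 lay within the C range, and TE within the E range but for TE1. The log2 fold change was 0.30 ± 0.10 in T vs C, 0.19 without T3, and 0.06 ± 0.10 in TE vs E (adjusted p = 0.893, edgeR). Lifr ranged from 73.7 to 91.2 CPM in C, 76.2 to 87.8 in T, 74.7 to 106 in E and 73.7 to 126 in TE, with all 4 ranges overlapping. Its log2 fold change was −0.01 ± 0.13 in T vs C and 0.08 ± 0.13 in TE vs E (adjusted p = 0.902, edgeR).

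Il6ra was the least abundant member. It was 4.23, 2.22, 3.89 and 2.39 CPM in C, 3.66, 4.15, 10.8 and 4.59 CPM in T, 3.99, 3.16, 4.68 and 3.48 CPM in E, and 2.36, 4.26, 4.71 and 8.35 CPM in TE. T3 and TE4 stood far above the other mice of their groups, which overlapped C and E. The log2 fold change was 0.87 ± 0.37 in T vs C and 0.37 without T3, and it was 0.36 ± 0.36 in TE vs E (adjusted p = 0.807, edgeR) and −0.01 without TE4. The part of the cell type markers that were high in T3 in the T values of Il6st, Il6ra and Cebpd was not tested.

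Ratios of FPKM between receptor genes within a mouse were compared as descriptions, since they rest on the same values as the genes. The ratio of Osmr to Il6st was 0.0843, 0.104, 0.0853 and 0.0931 in E1 to E4 and 0.134, 0.176, 0.172 and 0.195 in TE1 to TE4, without overlap. The log2 difference of TE and E was 0.88. In the untrained groups this ratio was 0.0955 ± 0.0107 in C and 0.159 ± 0.0123 in T. The ratio of Osmr to Lifr was 0.369 ± 0.0655 in E and 0.699 ± 0.225 in TE, where TE1 overlapped E4, and it was 0.376 ± 0.0530 in C and 0.793 ± 0.233 in T. The ratio of Il6ra to Il6st was 0.0347 ± 0.00540 in E and 0.0431 ± 0.0219 in TE, with overlap.

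**Figure D2:**
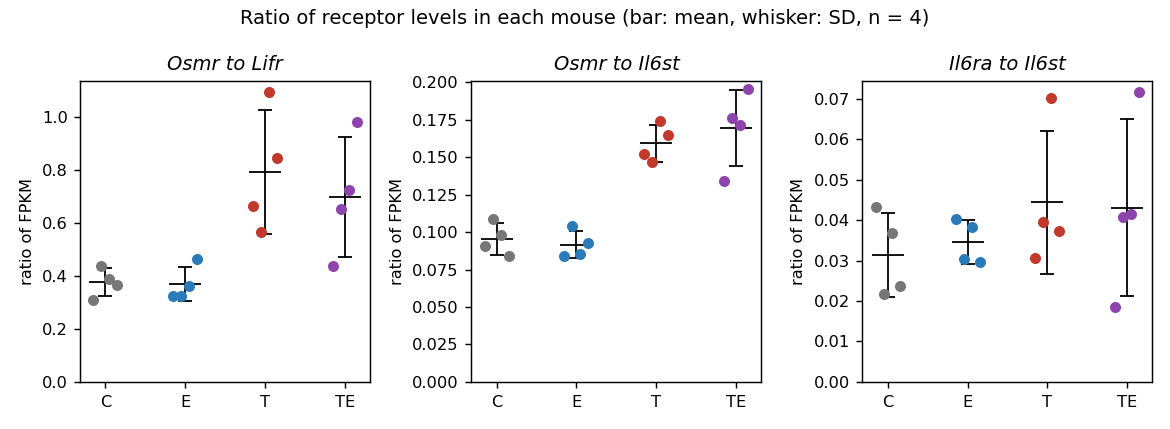
Ratio of FPKM between receptor genes (vertical axes, each from 0, no unit) in each mouse by group, where points are mice, the short bar is the mean and the whiskers are the SD (n = 4). Osmr to Il6st was 0.134 or more in every tumor-bearing mouse and 0.109 or less in every tumor-free mouse, and Il6ra to Il6st overlapped between all groups.

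The kinase genes Jak1 and Jak2 showed small differences, and the groups overlapped in every comparison. Jak1 was 192 to 213 CPM in C, 179 to 196 in T, 183 to 192 in E and 182 to 223 in TE. Its log2 fold change was −0.09 ± 0.06 in T vs C, 0.13 ± 0.06 in TE vs E (adjusted p = 0.555, edgeR) and 0.14 ± 0.06 in TE vs T (adjusted p = 0.847, edgeR). Jak2 was 73.2, 58.1, 64.6 and 59.4 CPM in C, 47.6, 60.4, 51.0 and 48.8 CPM in E, 52.5, 67.4, 53.3 and 51.0 CPM in T, and 48.8, 72.2, 67.5 and 61.9 CPM in TE. Its log2 fold change was −0.19 ± 0.12 in T vs C and 0.27 ± 0.12 in TE vs E (adjusted p = 0.508, edgeR), and −0.30 ± 0.12 in E vs C (adjusted p = 0.287, edgeR). E2 lay within the C range and TE1 within the E range.

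Stat3, the transcription factor of the pathway, was higher in every tumor-bearing mouse than in every tumor-free mouse. It was 61.3, 69.0, 64.5 and 62.7 CPM in C1 to C4 and 98.3, 75.6, 109.9 and 94.9 CPM in T1 to T4. It was 58.2, 68.8, 64.7 and 64.0 CPM in E1 to E4 and 78.8, 78.6, 81.5 and 77.7 CPM in TE1 to TE4. The lowest tumor-bearing mouse was T2 and the highest tumor-free mouse C2, and the 4 TE mice lay close together. The log2 fold change was 0.56 ± 0.09 in T vs C and 0.31 ± 0.09 in TE vs E, where the test over all genes was not passed (adjusted p = 0.198, edgeR) in the fit or in any of its 22 alternatives (lowest adjusted p = 0.0583, with DESeq2). Between the tumor-bearing groups, the log2 fold change of TE vs T was −0.26 ± 0.09 (adjusted p = 0.724, edgeR). T2 lay below all 4 TE mice and the other T mice above them. Genes whose levels closely followed those of Stat3 were the adiponectin receptor gene Adipor2 (r = 0.925, rho = 0.915), Osmr (r = 0.908, rho = 0.912), the inflammatory caspase gene Casp4 (r = 0.904, rho = 0.897) and the semaphorin gene Sema7a (r = 0.896, rho = 0.856), over the same 16 libraries and as descriptions.

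Socs3, whose promoter window holds the STAT motif shown in capitals, encodes the feedback inhibitor that binds gp130 and the JAK kinases. It was 3.5, 5.33, 4.56 and 5.69 CPM in C, 10.6, 8.57, 10.3 and 10.6 CPM in T, 3.91, 4.99, 3.80 and 12.3 CPM in E, and 4.16, 12.5, 5.49 and 6.18 CPM in TE. All T mice were above all C mice, whereas in each trained group 1 mouse (E4 and TE2) was high and the other 3 lay near the C range. The log2 fold change was 1.07 ± 0.35 in T vs C and 0.18 ± 0.35 in TE vs E (adjusted p = 0.922, edgeR), and 0.75 in TE vs E without E4 (adjusted p = 0.467, edgeR) but −0.24 without TE2. The genes most like Socs3 were Dnajc27 (r = 0.802), Bmi1 (r = 0.780), Pim3 (r = 0.776), Gm30943 (r = 0.769) and Spast (r = 0.752), with rho between 0.709 and 0.838 (n = 16).

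Cebpd was the most variable of the 9 genes. It was 14.8, 13.7, 12.3 and 12.7 CPM in C, 21.6, 15.1, 63.8 and 19.8 CPM in T, 14.3, 14.9, 15.1 and 25.99 CPM in E, and 14.4, 37.2, 47.5 and 31.3 CPM in TE. All T mice were above all C mice, but T3 stood far above the other 3, and TE1 lay among the E mice. The log2 fold change was 1.17 ± 0.39 in T vs C, or 0.49 without T3, and 0.89 ± 0.38 in TE vs E (adjusted p = 0.485, edgeR).

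**Figure D3:**
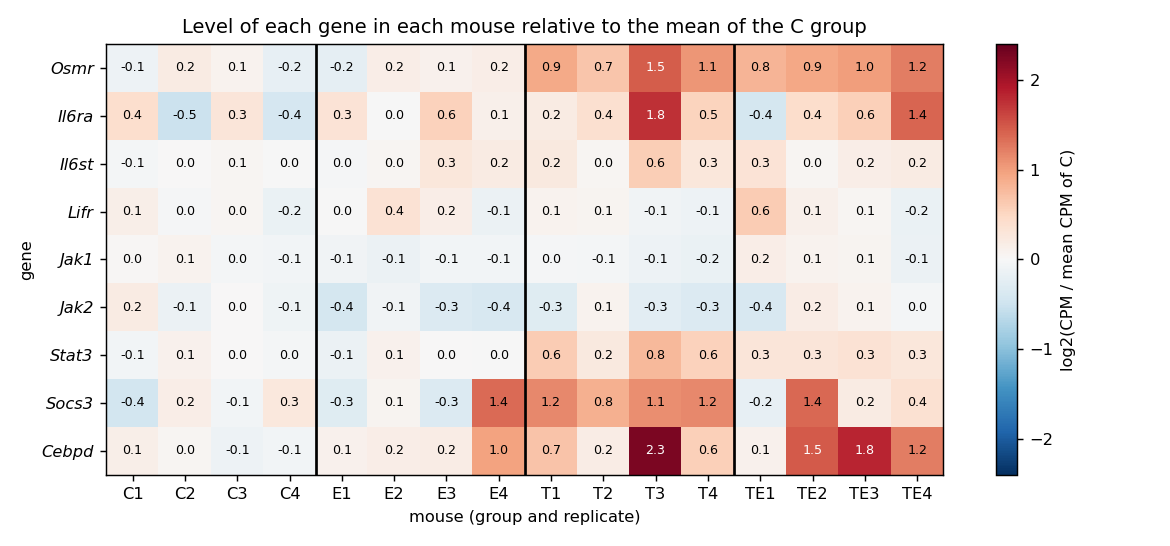
Log2 ratio of CPM to the mean CPM of the C group for the 9 genes (rows) in the 16 mice (columns), where red is above and blue below the C mean and black lines part the groups. Osmr and Stat3 are above 0 in all 8 tumor-bearing mice, and Cebpd reaches 2.3 in T3 against 0.2 in T2.

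Over the 9 members, the groups did not overlap for 4 in T vs C, namely Osmr, Stat3, Socs3 and Cebpd, all higher in T, beside 4.03% of all tested genes that were higher without overlap. Because the choice of members drew on this comparison, nothing is read from that count. The median log2 fold change was 0.56 over the members and −0.00125 over all tested genes. In TE vs E, all 9 members had a log2 fold change above 0 with a median of 0.27 (Il6ra, Lifr and Socs3 were at −0.01, −0.09 and −0.24 without TE4, TE1 and TE2, respectively), beside 0.00287 over all tested genes, and 2 of the 9 (Osmr and Stat3) did not overlap, beside 2.68% of all tested genes that were higher without overlap.

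Training by itself was followed by no called change of these genes. In E vs C, 0 of the 9 members were called by edgeR's quasi-likelihood test, beside 0.0881% of all genes called. Jak2 alone had an unadjusted p-value under 0.05, beside 14.2% of all genes. DESeq2 and limma-voom, the other tools run, likewise called 0 members. The log2 fold change of Osmr in E vs C was 0.06 ± 0.15 and that of Stat3 −0.01 ± 0.09 (adjusted p = 0.897 and 0.973, edgeR), with 95% confidence intervals of −0.25 to 0.37 and −0.20 to 0.17. Fibro-adipogenic progenitor markers summed to 1678 to 2411 CPM in C and 2516 to 3245 CPM in E, with 10 of 10 above 0 in log2 fold change and 0 called, and their part in these values was not tested.

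Training of tumor-bearing mice was likewise followed by no called change. In TE vs T, 0 of the 9 members and 0 of all 14749 genes (0%) were called by edgeR, 867 genes had an unadjusted p-value under 0.05, and DESeq2 called 7 genes and limma-voom 0. Among the members, Stat3 (log2 fold change −0.26) and Jak1 (0.14) had an unadjusted p-value under 0.05 in edgeR, beside 5.88% of all genes. The members were chosen with T vs C known, and TE vs T uses the same T mice, so these p-values are not independent of that choice. The log2 fold change of Osmr was −0.05 (95% confidence interval −0.35 to 0.25), and that of Socs3 was −0.51 (−1.23 to 0.22), so that differences of this width were not resolved with 4 mice per group.

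The difference between the 2 tumor effects, TE vs E minus T vs C, is given without a test, since it draws on T and C. It was −0.11 ± 0.20 (log2, SE) for Osmr, −0.25 ± 0.12 for Stat3, −0.24 ± 0.14 for Il6st and −0.89 ± 0.49 for Socs3. It was 0.46 ± 0.17 for Jak2 and 0.22 ± 0.09 for Jak1. T vs C and TE vs T share the T mice, and T vs C and E vs C share the C mice, so the values of these comparisons are not independent.

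**Figure D4:**
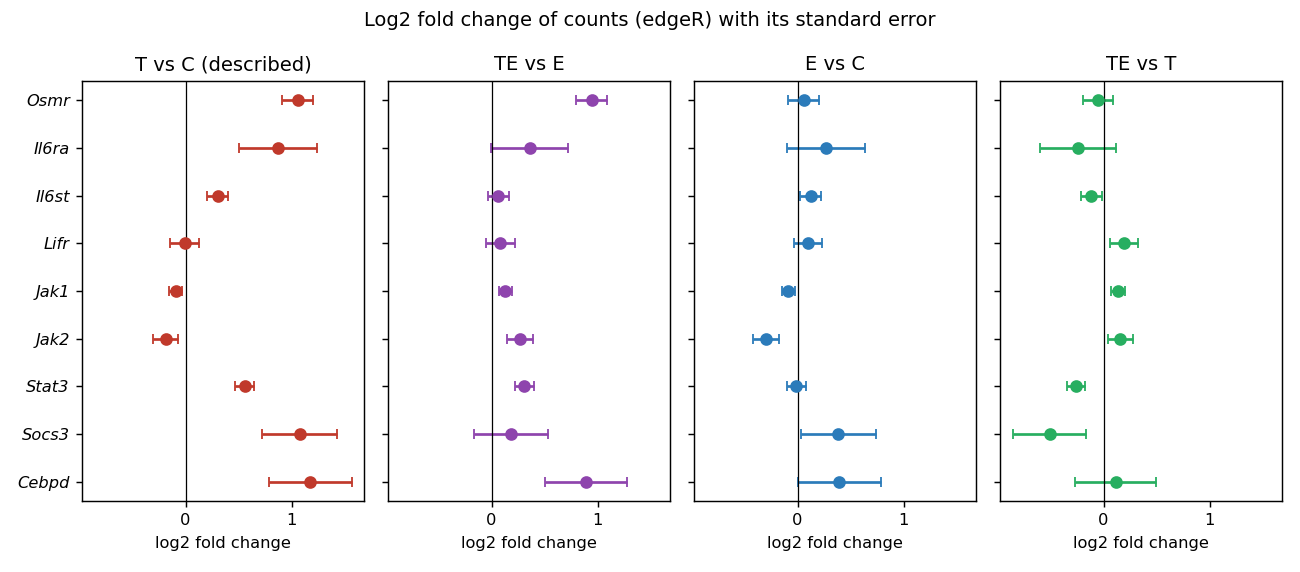
Log2 fold change from edgeR (horizontal axes) of each of the 9 genes (vertical axis) in 4 comparisons, where points are estimates and bars reach 1 standard error to each side. Osmr lies at 1.05 in T vs C and 0.94 in TE vs E and near 0 in E vs C and TE vs T, and T vs C is a description because it was known when the genes were chosen.

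Of the 8 ligand genes of the family, all but Ctf1 had at most 26 counts in a library. Il6 had 0 to 21 counts per library, Il11 0 to 10, Il27 0 to 12, Osm, the ligand of OSMR, 0 to 11 and Cntf 0 to 6, and these 5 genes were below the filter on low counts. Osm had 1, 0, 1 and 1 counts in C, 1, 0, 0 and 0 in E, 1, 1, 6 and 6 in T, and 0, 7, 1 and 11 in TE. That is 4 counts in the tumor-free and 33 in the tumor-bearing mice, with T1, T2, TE1 and TE3 among the tumor-free range. In the fit without a filter, Osm was not called in T vs C (adjusted p = 0.558, edgeR) or TE vs E (adjusted p = 0.439, edgeR), and the other 4 genes were not called in any comparison. Of the 3 ligand genes tested, the cardiotrophin gene Ctf1 was the most abundant, with 227 to 387 counts per library and 6.03 ± 0.568 FPKM (SD, n = 4) in C, followed by Clcf1 with 2 to 26 and Lif with 1 to 17. None of the 3 was called in any comparison, and the log2 fold change of Ctf1 was −0.18 ± 0.14 in T vs C and 0.11 ± 0.14 in TE vs E (adjusted p = 0.59 and 0.857, edgeR).

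Of 62 other genes of the pathway on 5 lists, 56 were tested. The lists were chosen with results of T vs C known, so their counts, calls and p-values in T vs C are not independent evidence. In T vs C 1 was called higher and 1 lower, beside 0.678% of all genes called. In TE vs E 1 was called higher, beside 0.231% of all genes called. In E vs C and TE vs T 0 were called, beside 0.0881% and 0% of all genes. The gene called in both tumor comparisons was Jak3, a kinase of the common gamma chain receptors found mainly in blood cells. Jak3 was 4.49, 6.94, 5.64 and 5.30 CPM in C, 9.32, 9.81, 9.21 and 11.8 CPM in T, 5.28, 5.35, 3.80 and 7.18 CPM in E, and 8.53, 11.1, 8.49 and 13.0 CPM in TE, so that all 8 tumor-bearing mice were above all tumor-free mice. It rose by a log2 fold change of 0.84 ± 0.18 in T vs C (adjusted p = 0.0451, edgeR) and 0.93 ± 0.18 in TE vs E (adjusted p = 0.0452, edgeR), but it was called in 12 of 23 and 11 of 23 alternative settings only. Among the other 11 kinases, adaptors and STATs, including Tyk2 and Stat5b, none was called.

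Among 20 genes known to be induced by STAT3, 0 were called higher in any comparison. Of all tested genes, 0.678% were called in either direction in T vs C, 0.231% in TE vs E, 0.0881% in E vs C and 0% in TE vs T. With shares this small, nothing is read from that count. The cyclin D1 gene Ccnd1, which STAT3 can induce, fell in T vs C, with a log2 fold change of −0.999 ± 0.22 (adjusted p = 0.0451, edgeR). Like that of Jak3, this T vs C p-value is not independent of the choice of the lists. Ccnd1 was 7.81, 17.4, 16.1 and 15.3 CPM in C and 5.97, 8.32, 5.97 and 8.12 CPM in T, where C1 overlapped T, and it was called in 8 of 23 alternatives. In TE vs E its log2 fold change was −0.24 ± 0.22 (adjusted p = 0.787, edgeR). Bcl3, an IκB family gene of the same list, is named after its values were seen. Bcl3 was 1.69, 1.77, 1.38 and 0.989 CPM in C, 4.13, 2.405, 5.42 and 4.89 CPM in T, 1.94, 1.83, 1.44 and 1.24 CPM in E, and 2.12, 3.48, 2.05 and 7.76 CPM in TE, with all tumor-bearing mice above all tumor-free mice. Its log2 fold change of 1.53 ± 0.38 in T vs C and 1.25 ± 0.37 in TE vs E did not pass the threshold in edgeR. The median log2 fold change over the 20 genes was 0.28 in T vs C and 0.23 in TE vs E, with 16 and 15 genes above 0.

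Of the other receptors and soluble partners, 7 of 8 were tested and 0 called. Nothing is read from this count or that of the brakes below, given the small shares of all genes called. The smallest adjusted p-value among them in TE vs E was that of Csf3r, which neutrophils carry. Csf3r was 1.14, 1.34, 0.864 and 0.687 CPM in C, 2.11, 1.69, 3.89 and 2.43 CPM in T, 0.499, 0.737, 0.836 and 1.57 CPM in E, and 1.98, 1.78, 3.05 and 2.35 CPM in TE, with all tumor-bearing mice above all tumor-free mice. Its log2 fold change was 1.33 in both comparisons, given as a description because Csf3r was also among the genes most like Osmr. Of the 14 brakes of the pathway, which are SOCS, PIAS and phosphatase genes, 0 were called, and the smallest adjusted p-value in TE vs E was that of Socs2 (log2 fold change 1.07 ± 0.37, adjusted p = 0.333, edgeR). Socs2 was 12.1, 13.3, 5.85 and 6.69 CPM in E and 37.9, 18.4, 14.1 and 9.37 CPM in TE, where TE4 overlapped E, and its log2 fold change was 0.56 without TE1.

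**Figure D5:**
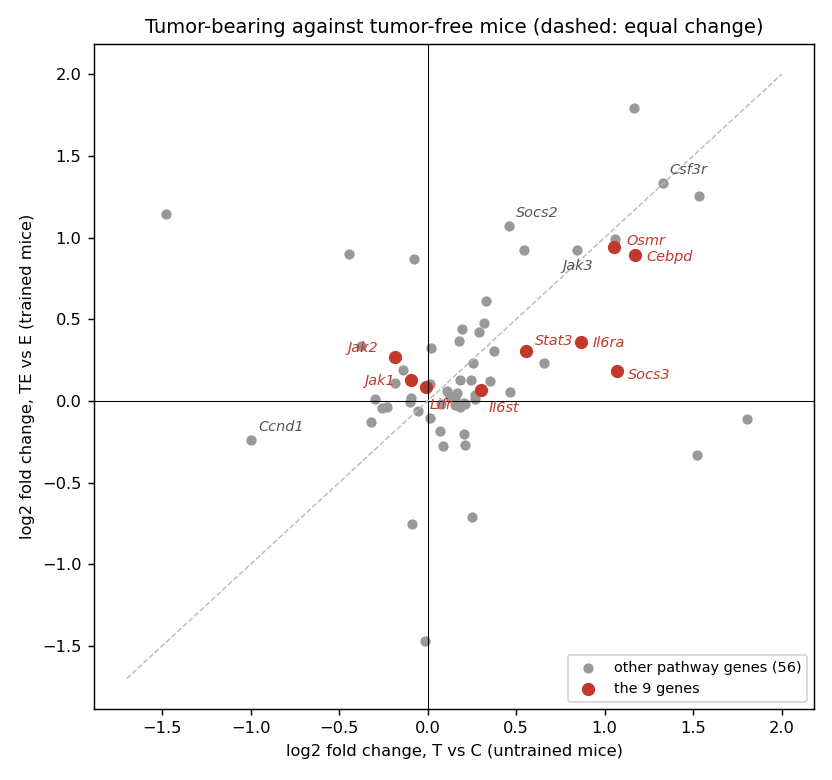
Log2 fold change of T vs C (horizontal axis) and of TE vs E (vertical axis) for the 9 genes (red) and the 56 other tested genes of the pathway lists (grey), where the dashed line marks equal change in both. Osmr lies near the line at 1.05 and 0.94, beside Csf3r at 1.33 on both axes, while Socs3 lies at 1.07 and 0.18.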

How the data were processed

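RNA of the gastrocnemius of 16 mice, 4 in each of the groups C, E, T and TE, was sequenced. Per the labels, the authors trimmed reads with fastp 0.20.1, aligned them with HISAT2 2.1.0 and counted them with HTSeq 0.11.2, and they deposited raw counts per gene. A second deposited table gives FPKM, in which counts are scaled by gene length and library total. The paper names GRCm39, and the strand setting and annotation release are not given in the sources used here. No columns of other samples were present (0).

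Counts were tested with edgeR 4.0.16 (R 4.3.3, filterByExpr, TMM factors, glmQLFit and glmQLFTest, 1 coefficient per group), with two-sided p-values adjusted by the Benjamini-Hochberg method over the 14749 tested genes and called under 0.05. CPM used TMM factors, and log2 CPM a prior count of 2. FPKM served to compare levels between genes. Only the main edgeR fit was tested on simulated data. DESeq2 1.42.0, limma-voom (limma 3.58.1), DESeq2 size factors in edgeR, no filter, a fit of only the 2 groups compared, a replicate block, the study's 2-fold rule and leaving out each library were the alternatives.

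The members and the lists were chosen with earlier results of these data known, so T vs C p-values of list genes are not independent evidence. The members, ligands that passed the filter, list genes called in any comparison, or otherwise the list gene with the smallest adjusted p in TE vs E, and the 5 genes with the highest Pearson r to Osmr, Stat3 and Socs3 are named, except 1 gene that is not reported here. GEO's labels do not say that replicates came from separate cages or days, so p-values measure the spread between these mice. Intervals of fold changes come from the edgeR fit and likewise cover this spread, whereas floors from counts cover counting error only, since PCR copies were not marked.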

Additional observations from a re-analysis of the deposited data

Results flagged for a closer look

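In 7 of 36 sets (9 genes in 4 groups), 1 mouse lay apart from the other 3 by more than Dixon's 95% critical value for 4 values, and chance flags about 1 in 20 such sets. In T3, Il6ra reached 10.8 CPM against 3.66 to 4.59 CPM in the other T mice, and Cebpd reached 63.8 CPM against 15.1 to 21.6 CPM. In E4, Socs3 reached 12.3 CPM against 3.80 to 4.99 CPM in the other E mice, and Cebpd reached 25.99 CPM against 14.3 to 15.1 CPM. T2 was low for Socs3 at 8.57 CPM, against 10.3 to 10.6 CPM in the other T mice, and high for Jak2 at 67.4 CPM, against 51.0 to 53.3 CPM. Jak1 was low in E2 at 182.7 CPM, against 191 to 192 CPM in the other E mice. What set these mice apart was not tested.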

How the results depend on the processing

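Osmr was called in TE vs E under all 22 alternatives of the fit, with log2 fold changes of 0.863 to 0.999 and adjusted p-values of 3.81e-07 to 0.0327, but under the study's 2-fold rule 0 members were called in TE vs E. Genes called in TE vs E numbered 34, and 69 without a filter, 178 with DESeq2, 61 with limma-voom, 96 with only the 2 groups, 11 under the 2-fold rule and 18 to 69 with a library left out. Genes called in E vs C numbered 13, and 21 with DESeq2 size factors, 45 without a filter, 279 with DESeq2, 141 with limma-voom, 183 with only the 2 groups, 25 with the replicate block, 7 under the 2-fold rule and 0 to 127 with a library left out (127 without T3). Genes called in TE vs T numbered 0, and 3 without a filter, 7 with DESeq2 and 0 to 2 with a library left out. In T vs C, edgeR called 100 genes, DESeq2 421 and limma-voom 68. The replicate numbers did not pair the mice, as same-numbered libraries correlated at −0.241 to 0.214 and 5 of 16 correlated best with their own number, and in the fit with the replicate block the adjusted p of Osmr in TE vs E was 0.0133. Without T3, the log2 fold change of Cebpd was 0.49 in T vs C and 0.79 in TE vs T, and without E4 that of Socs3 was 0.75 in TE vs E and −0.18 in E vs C. The cause of these shifts was not tested. With 4 mice per group, differences of Socs3, Il6ra and Cebpd were the least precise.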
